A study of Mus musculus with 6 samples.

Results

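Genes of the cell cycle and of DNA replication were examined in RNA sequencing libraries of endothelial cells isolated on postnatal day 7 from retinas of C57BL/6 pups. The 36 genes were taken by symbol from 24421 rows of the deposited table, and all 36 were present. They were divided by the phase in which their products act, with 14 assigned to the G1/S transition and S phase and 22 to G2 phase and mitosis. Of the 6 libraries, 3 were controls of genotype Anxa3 fl/fl, in which the annexin A3 gene is floxed and intact, and 3 were mutants of genotype Anxa3 fl/fl;Tie2-Cre. Tie2-Cre is a recombinase transgene driven by a promoter that is active in endothelial cells and in cells of the blood lineage. All groups therefore carry the floxed alleles and only the mutants carry Cre, so Cre itself and Anxa3 loss cannot be told apart. The study asked which genes respond to loss of Anxa3, in connection with the crossing of retinal arteries and veins. The labels do not say whether a library came from a single pup or from several, so p-values here cover only library-to-library spread, which may be technical.

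Cells copy their DNA in S phase and divide in mitosis. The MCM helicase is loaded onto replication origins by Cdc6 and Cdt1 before S phase, DNA polymerases are held on DNA by the Pcna clamp, and ribonucleotide reductase and thymidylate synthase supply nucleotides. Cyclin B with Cdk1 then drives entry into mitosis, and the anaphase-promoting complex ends it by marking cyclins for destruction. In the retina of the first postnatal week the vascular plexus is still spreading, and endothelial cells behind the sprouting front divide, while late retinal progenitor cells of the surrounding neural tissue also leave the cycle in this period.

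Over windows that include bases after the transcription start, the promoters of the members differed by phase in the short motifs they held. This is background to how such genes are known to be switched on together. RefSeq promoter windows of GRCm38.p6, running from 250 bases before to 50 bases after a transcription start, were found for 30 members in 32 windows. Ccna2, Aurkb, Kif20a, Tpx2, Mcm4 and Ccne2 had no window. Motifs were searched on both strands in all 32851 windows of the same 300-base length. The cell cycle homology region, or CHR, is the element through which the DREAM and MuvB complexes are known to act on mitotic genes, and it was searched as TTTGAA or TTCGAA. It was held by 16 of 19 windows of G2/M members (84.2%), by 2 of 13 windows of S phase members (15.4%) and by 19.2% of all windows. The E2F motif of G1/S genes, searched as TTCGCGC or TTGGCGC, was held by 5 of 13 S phase windows (38.5%), by 3 of 19 G2/M windows (15.8%) and by 3.89% of all windows. CCAAT, the box bound by NF-Y, was held by 17 of 19 G2/M windows (89.5%), 9 of 13 S phase windows (69.2%) and 37.4% of all windows. All 16 G2/M windows with the CHR also held CCAAT, a combination found in 7.52% of all windows. Not all motifs lay in the 250 bases before the start. Among S phase members only Mcm5 and Mcm6 held E2F there, and among G2/M members Ccnb1, Cdk1 and Mki67. The E2F motifs of Cdt1, Mcm3 and Mcm7 reached past the start, so the difference in E2F shares rests on those bases. The CHR likewise reached past the start in Aurka, Bub1, Cenpf, Kif23, Plk1 and Ttk. These shares describe letters in a window and were not matched for base composition, and they say nothing about binding in these cells.

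The following stretches of 150 bases end at the base before the RefSeq start, 5′ to 3′ on the strand of the gene, and show both arrangements. Capitals mark the CHR, E2F and CCAAT letters on either strand. Cdk1 lies at chr10:69352913-69353062 on the minus strand, Top2a at chr11:99024190-99024339 on the minus strand, Cdc20 at chr4:118437344-118437493 on the minus strand, Ube2c at chr2:164769779-164769928 on the plus strand, Mki67 at chr7:135716380-135716529 on the minus strand, Mcm5 at chr8:75109359-75109508 on the plus strand and Mcm6 at chr1:128359706-128359855 on the minus strand. They were chosen after the search because their motifs fall within this stretch.
Cdk1: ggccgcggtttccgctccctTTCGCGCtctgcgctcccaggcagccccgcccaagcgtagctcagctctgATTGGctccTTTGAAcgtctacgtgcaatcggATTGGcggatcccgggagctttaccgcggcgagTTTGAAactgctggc
Top2a: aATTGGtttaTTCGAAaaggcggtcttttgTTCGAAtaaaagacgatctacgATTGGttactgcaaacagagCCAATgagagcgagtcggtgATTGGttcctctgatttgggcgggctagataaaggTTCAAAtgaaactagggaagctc
Cdc20: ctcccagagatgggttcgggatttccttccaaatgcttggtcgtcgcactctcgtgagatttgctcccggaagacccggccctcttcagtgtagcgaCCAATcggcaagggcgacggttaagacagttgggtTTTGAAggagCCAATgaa
Ube2c: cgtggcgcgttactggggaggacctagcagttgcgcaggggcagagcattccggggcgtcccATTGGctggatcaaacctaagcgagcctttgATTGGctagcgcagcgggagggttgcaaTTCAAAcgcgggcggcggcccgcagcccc
Mki67: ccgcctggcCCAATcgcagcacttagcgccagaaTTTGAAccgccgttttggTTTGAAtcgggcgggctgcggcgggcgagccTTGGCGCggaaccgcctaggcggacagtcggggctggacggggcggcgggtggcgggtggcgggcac
Mcm5: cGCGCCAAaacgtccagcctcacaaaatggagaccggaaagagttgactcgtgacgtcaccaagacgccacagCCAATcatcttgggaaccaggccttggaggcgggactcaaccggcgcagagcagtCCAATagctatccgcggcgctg
Mcm6: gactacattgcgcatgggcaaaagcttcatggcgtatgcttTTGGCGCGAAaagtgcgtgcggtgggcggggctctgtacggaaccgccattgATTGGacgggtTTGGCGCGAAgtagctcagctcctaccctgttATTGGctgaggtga
In Cdk1 the nearest CHR began 15 bases before the start, with CCAAT boxes at 48 and 80 bases on the opposite strand and an E2F motif at 130 bases. In Cdc20 a CHR began 18 bases before the start and in Ube2c 29 bases before it. Mcm6 held 2 E2F motifs in an arrangement that reads as E2F on both strands, beginning 46 and 109 bases before the start, and no CHR.

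**Figure D1:**
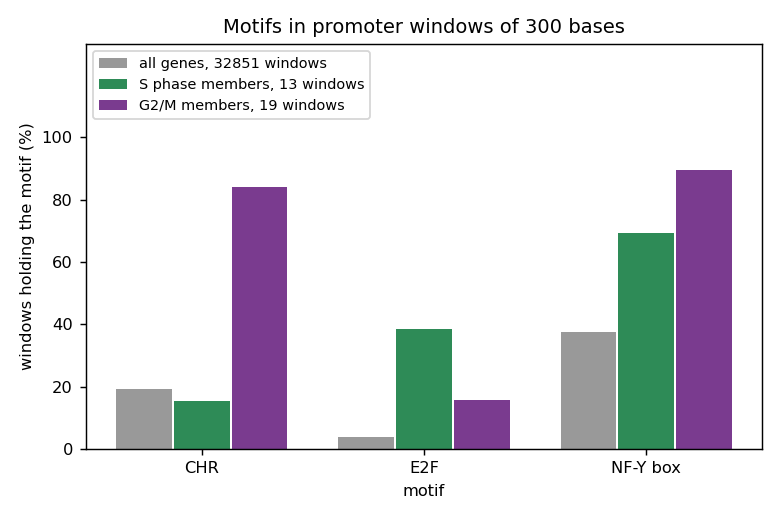
Share of 300-base promoter windows that hold each motif, in percent, for all RefSeq windows (grey, 32851), windows of S phase members (green, 13) and windows of G2/M members (purple, 19). The NF-Y box is the CCAAT motif. The CHR bar of G2/M members stands at 84.2% beside 19.2% for all windows, and the E2F bar of S phase members at 38.5% beside 3.89%.

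Values are FPKM, fragment counts scaled to gene length and library depth, which allow levels to be compared between genes. Values per library are listed throughout in the order of replicates 1, 2 and 3 of each group. Recovered reads ranged from 21381745 to 30897585 per library. The targeted gene served as a check of the labels. Anxa3 stood at 18.7, 17.7 and 43.4 FPKM among controls, against 9.78, 12.5 and 15.1 FPKM among mutants, lower in every mutant than in every control library (two-sided exact permutation p = 0.1, the smallest value that 20 arrangements allow, limma adjusted p = 1). Its log2 difference was -0.93, and -0.53 without control replicate 3. Endothelial markers were present in every library, with a mean level of 15 pan-endothelial genes from 5.14 to 6.29 on the log2(FPKM + 1) scale. Photoreceptor markers stood higher in every library, with a mean level of their 10 genes from 7.58 to 8.25. The libraries thus hold RNA of retinal neurons as well, at marker levels above those of endothelial genes. Means over different genes do not measure the share of each cell type. In such bulk libraries fewer dividing cells and less RNA per cell cannot be told apart. Control replicate 3 stood apart by its endothelial content, defined as the mean log2(FPKM + 1) of Pecam1, Cdh5 and Cldn5. That content was 6.29, 6.08 and 7.22 among controls, against 6.25, 6.28 and 6.60 among mutants, with a difference of -0.15 between groups (two-sided exact permutation p = 0.8). The labels letter the libraries without saying what the letters stand for: control replicates 1 and 2 and mutant replicate 1 carry A to C, and control replicate 3 and mutant replicates 2 and 3 carry D to F.

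No cell cycle or replication gene passed the test between mutant and control libraries. Of the 35 members that reached 1 FPKM in 3 or more libraries, 0 passed limma at an adjusted p under 0.05, against 0% of all 13619 genes tested, and 0 had an unadjusted p under 0.05, against 1.21% of all genes (165 genes). Limma voom on recovered reads also called 0 genes, with 0 members at an unadjusted p under 0.05, while limma with a weight per library called 145 genes, of which 0 were members. With those weights 5 members had an unadjusted limma p under 0.05, against 4069 of all 13619 genes tested. With endothelial content as a covariate 1 member did, against 287 of all genes tested. Cdc6 was under the filter and was not tested. The groups did not overlap for 1 of the 36 members, Bub1b, against 4.35% of all genes tested. G2/M members had a median log2 difference of 0.02, with 14 of 22 having a higher mean in mutants, and S phase members a median of -0.07, with 11 of 14 having a lower mean in mutants. The median over all genes tested was -0.01. Log2 differences ran from -0.18 to 0.23 over the members, in units of log2(FPKM + 1), where differences of low genes come out too small. Limma 95% confidence intervals differed in width between members, from -0.35 to 0.13 for Mcm4 to -0.65 to 0.38 for Ccnb2 and -0.28 to 0.74 for Ube2c, and each bounds the difference of its own gene.

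**Figure D2:**
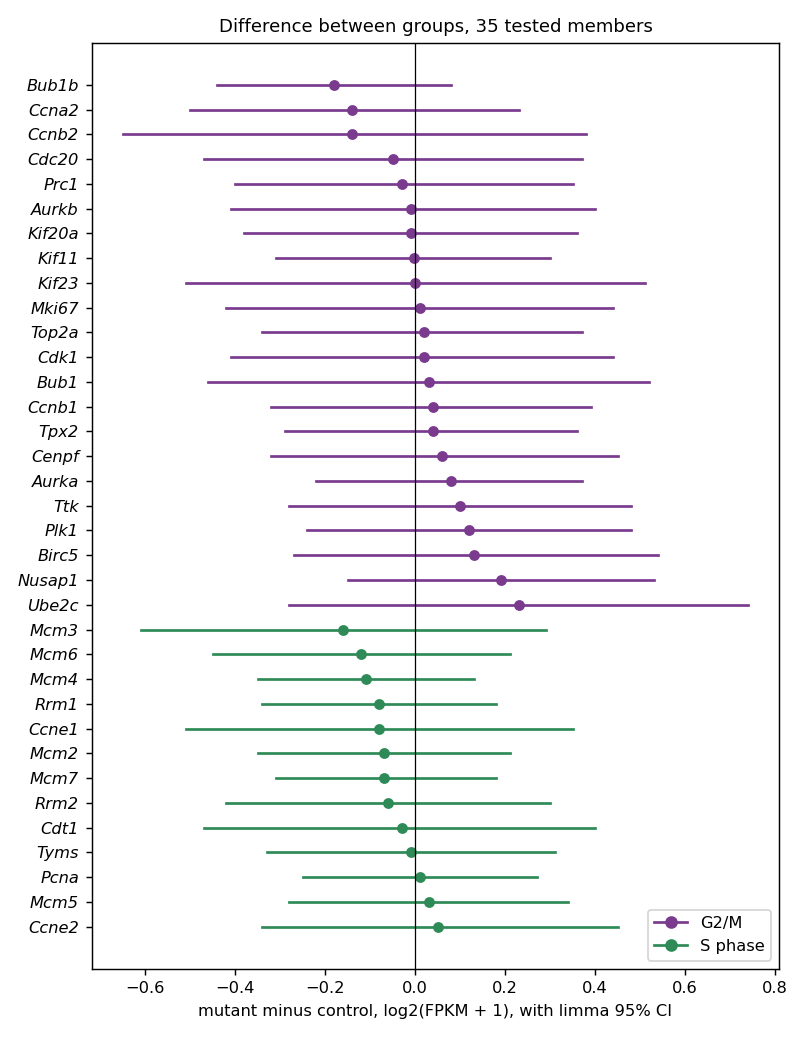
Difference between mutant and control means on the log2(FPKM + 1) scale for the 35 tested members (points) with limma 95% confidence intervals (lines, n = 3 libraries per group), for G2/M members in purple and S phase members in green. Every interval crosses 0, and the points lie between -0.18 and 0.23.

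Among the replication genes, the helicase subunits were expressed at unequal levels. Mcm7 stood at 21.6, 22.5 and 19.2 FPKM among controls, against 19.3, 22.4 and 18.7 FPKM among mutants. Mcm6 stood at 10.9, 12.7 and 15.8 FPKM among controls, against 11.4, 11.1 and 13.2 FPKM among mutants. Control replicate 3 was the highest library for Mcm6 and was below both other controls for Mcm7, and the groups overlapped for both genes. Mcm2 stood at 8.21, 8.20 and 8.94 FPKM among controls, against 8.92, 6.79 and 8.38 FPKM among mutants. Mcm4 stood at 7.75, 7.99 and 7.90 FPKM among controls, against 7.92, 7.09 and 6.78 FPKM among mutants. Both genes varied little among the controls, and mutant replicate 1 lay within the range of the controls for each. Mcm3 stood at 6.65, 5.57 and 10.3 FPKM among controls, against 6.30, 6.11 and 6.79 FPKM among mutants. Mcm5 stood at 5.34, 5.35 and 7.13 FPKM among controls, against 6.04, 5.64 and 6.44 FPKM among mutants. For Mcm3 control replicate 3 was far above all other libraries, at 1.64 times the mean of the other 5, whereas for Mcm5 it was 1.24 times that mean. Log2 differences were -0.07 for Mcm2, -0.16 for Mcm3, -0.11 for Mcm4, 0.03 for Mcm5, -0.12 for Mcm6 and -0.07 for Mcm7, with standard errors from 0.104 for Mcm4 to 0.195 for Mcm3 and a limma adjusted p of 1 for each. The signs for Mcm3 and Mcm6 turned without control replicate 3, to 0.06 and 0.01.

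Of the factors that load the helicase, Cdt1 ranged from 2.97 to 5.41 FPKM over the 6 libraries. Cdc6 was the lowest member, at 0.620, 0.571 and 0.863 FPKM among controls, against 0.555, 0.704 and 0.558 FPKM among mutants. Between 55 and 105 reads lay behind each of those Cdc6 values, beside 383 or more for each MCM gene. Pcna, the sliding clamp, was the most abundant member of all. It stood at 27.4, 25.8 and 24 FPKM among controls, against 29.8, 24.9 and 23.3 FPKM among mutants, a log2 difference of 0.01 (95% confidence interval -0.25 to 0.27). Control replicate 3 was thus not raised for Pcna, at 0.915 times the mean of the other 5 libraries. In nucleotide supply, Rrm1, the large subunit of ribonucleotide reductase, averaged 16.5 ± 0.245 FPKM among controls, against 15.6 ± 2.26 FPKM among mutants (SD, n = 3 each). Its partner Rrm2 measured 4.79 ± 0.742 and 4.57 ± 0.779 FPKM, and thymidylate synthase, Tyms, 3.90 ± 0.263 and 3.89 ± 0.647 FPKM. Of the E cyclins, which act with Cdk2 at the start of S phase, Ccne2 measured 3.27 ± 0.634 and 3.44 ± 0.711 FPKM and Ccne1 1.54 ± 0.535 and 1.37 ± 0.0851 FPKM. The differences between groups were smaller than the larger of the 2 SDs for each of these genes.

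The cyclins and kinase that start mitosis were highest in control replicate 3, in 4 of 4 cases. Ccna2, cyclin A2, which acts from S phase into G2, was the most abundant G2/M member. It stood at 14, 11.6 and 17.8 FPKM among controls, against 13.9, 11.4 and 13.4 FPKM among mutants, a log2 difference of -0.14 (95% confidence interval -0.50 to 0.23) that became 0.02 without control replicate 3. Cdk1 ranged from 5.32 to 8.85 FPKM, Ccnb1 from 2.32 to 3.55 FPKM and Ccnb2 from 4.47 to 8.70 FPKM. Ccna2 shares 510 exon bases with Exosc9 on the opposite strand, so with no statement of strand use its reads cannot be told apart from those of that gene there. Such overlaps, of 53 to 1271 bases, concern 8 members, the others being Ccne2, Cdc20, Kif20a, Mcm7, Nusap1, Prc1 and Ube2c. Ccnb1, Ccnb2, Pcna and Tyms have annotated pseudogenes named after them, whose reads could also be shared.

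Mki67 and Top2a, the usual marks of cycling cells, had nearly equal means in both groups. Mki67, which coats mitotic chromosomes, stood at 8.76, 6.90 and 12.4 FPKM among controls, against 8.93, 8.60 and 10.1 FPKM among mutants. Top2a, the topoisomerase that untangles sister chromatids, stood at 10.5, 9.97 and 14.8 FPKM among controls, against 12.6, 10.7 and 12 FPKM among mutants. In both genes the controls held the lowest and the highest library, and the mutants lay between them. Log2 differences were 0.01 for Mki67 and 0.02 for Top2a, with standard errors of 0.188 and 0.154.

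Among mitotic kinases and the passenger complex, Plk1 averaged 4.18 ± 0.948 FPKM among controls, against 4.56 ± 0.379 FPKM among mutants (SD, n = 3 each), Aurkb 3.83 ± 0.989 and 3.76 ± 0.498 FPKM, and Birc5, or survivin, 2.25 ± 0.619 and 2.54 ± 0.406 FPKM. Aurka, the kinase of the spindle poles, went a separate way, with its highest value of 5.82 FPKM in mutant replicate 1 and 4.36 to 4.74 FPKM elsewhere. In the spindle checkpoint, Bub1b, which encodes BubR1 and lies at chr2:118598211-118641591 of GRCm38 on the plus strand, gave the smallest unadjusted p of the G2/M members. It stood at 6.72, 6.01 and 7.44 FPKM among controls, against 5.87, 5.75 and 5.79 FPKM among mutants, a log2 difference of -0.18 (95% confidence interval -0.44 to 0.08, limma adjusted p = 1), and -0.11 without control replicate 3. All mutants were below all controls for Bub1b, although control replicate 2 and mutant replicate 1 were close. Ttk, the checkpoint kinase Mps1, was the lowest G2/M member. It stood at 1.40, 1.30 and 2.17 FPKM among controls, against 1.90, 1.73 and 1.70 FPKM among mutants. Bub1 ranged from 2.11 to 4.19 FPKM and the kinetochore protein Cenpf from 1.85 to 3.07 FPKM, each with control replicate 2 lowest and control replicate 3 highest, as for Ttk.

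At the anaphase-promoting complex, its activator Cdc20 ranged from 7.18 to 11.9 FPKM, with control replicate 3 highest. Its E2 enzyme Ube2c had the largest log2 difference of the members, 0.23 (95% confidence interval -0.28 to 0.74, limma adjusted p = 1), which was 0.10 without control replicate 2 or mutant replicate 3, 0.43 without control replicate 3, 0.40 without mutant replicate 1 and 0.05 with the letters as a block. Ube2c stood at 3.24, 2.80 and 5.02 FPKM among controls, against 3.26, 4.69 and 5.48 FPKM among mutants. The high libraries for Ube2c were control replicate 3 and mutant replicates 2 and 3, which are those lettered D to F, and 63 to 142 reads lay behind each value. Of the spindle genes, Nusap1, a microtubule-associated protein, stood at 3.08, 2.69 and 3.60 FPKM among controls, against 4.03, 3.11 and 3.97 FPKM among mutants, a log2 difference of 0.19 (95% confidence interval -0.15 to 0.53, limma adjusted p = 1), and 0.11 without control replicate 2. The kinesin Kif11, which pushes spindle poles apart, averaged 5.41 ± 0.788 FPKM among controls, against 5.38 ± 0.433 FPKM among mutants (SD, n = 3 each), and the assembly factor Tpx2 4.30 ± 0.674 and 4.43 ± 0.472 FPKM. At the central spindle Prc1 measured 5.32 ± 0.924 and 5.22 ± 0.917 FPKM, Kif20a 3.29 ± 0.618 and 3.27 ± 0.588 FPKM, and Kif23 3.87 ± 1.53 and 3.75 ± 0.612 FPKM. For these 5 genes the means of the groups differed by less than the SD of either group.

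**Figure D3:**
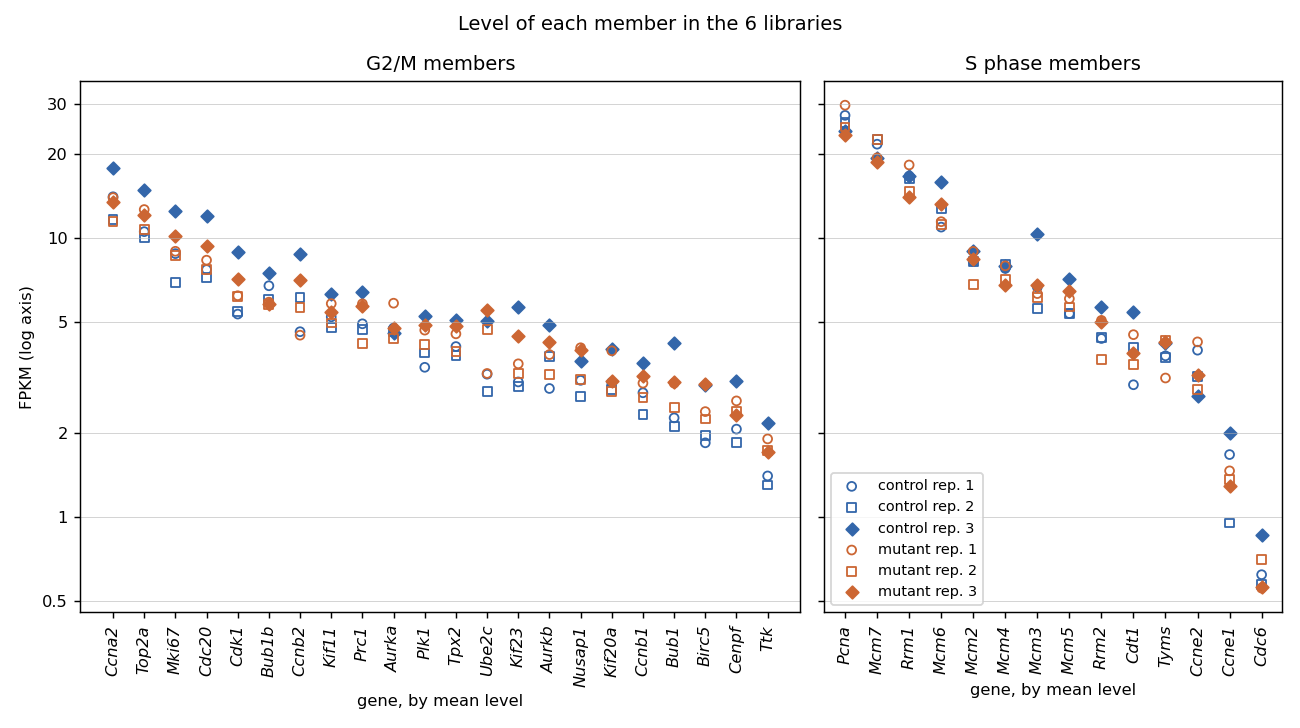
FPKM of each member in each library on a log axis, for 22 G2/M members (left) and 14 S phase members (right), ordered by mean level. Controls are blue and mutants orange, and the marker shape gives the replicate number. Control replicate 3 (filled blue diamonds) is the top point for most G2/M members, while Pcna and Mcm7, the most abundant S phase members, have it low in their range.

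Most members were highest in control replicate 3, the library with the highest endothelial content. Control replicate 3 was the highest of the 6 libraries for 18 of 22 G2/M members and 8 of 14 S phase members, against 24.4% of all genes tested. The G2/M exceptions were Aurka and Nusap1, highest in mutant replicate 1, and Birc5 and Ube2c, highest in mutant replicate 3. The S phase exceptions were Mcm4, Mcm7, Pcna, Rrm1, Tyms and Ccne2. The median ratio of control replicate 3 to the mean of the other 5 libraries was 1.31 for G2/M members, 1.17 for S phase members and 0.98 for all genes tested. Single members ran from 0.774 for Ccne2 to 1.64 for Kif23 and Mcm3. The endothelial genes themselves stood higher, at 1.88 for Pecam1, 1.92 for Cdh5 and 1.86 for Cldn5. At the other end, control replicate 2, which had the lowest endothelial content, was the lowest library for 12 of 22 G2/M members and for 2 of 14 S phase members. It was lowest for 1651 of the 13619 genes tested, a share near that of the S phase members. These counts describe the libraries, and the phases were not tested against each other.

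**Figure D4:**
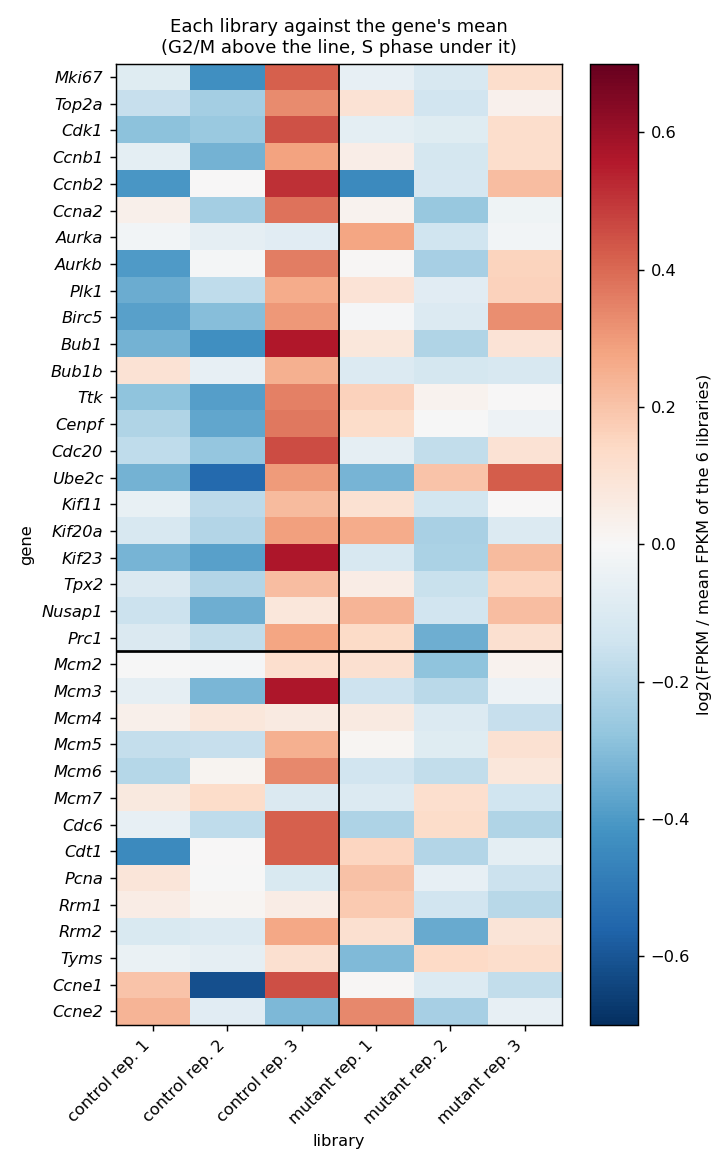
Each library's FPKM over the mean of the 6 libraries, on a log2 colour scale, for G2/M members (above the horizontal line) and S phase members (under it). The column of control replicate 3 is red for most G2/M rows, and mixed for S phase rows, with Mcm7, Pcna and Ccne2 under their means there.

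The mean log2(FPKM + 1) of the 22 G2/M members was 2.37, 2.32 and 2.79 among controls, against 2.54, 2.41 and 2.61 among mutants. The mean of the 14 S phase members was 2.86, 2.83 and 3.02 among controls, against 2.91, 2.79 and 2.85 among mutants. Control replicate 3 was highest on both scales and mutant replicate 3, second in endothelial content, was second for G2/M but not for S phase members. Mutant replicate 1 came next for G2/M members, with an endothelial content close to that of control replicate 1 and mutant replicate 2, so endothelial content did not order all libraries. After subtraction of each library's endothelial content, the G2/M level was -3.91, -3.76 and -4.43 among controls, against -3.71, -3.87 and -4.00 among mutants. The S phase level was then -3.43, -3.26 and -4.20 among controls, against -3.34, -3.49 and -3.76 among mutants. On this relative scale control replicate 3 became the lowest library for both phases. It was also lowest for the mean of all genes tested, at -2.67, -2.47 and -3.56 among controls, against -2.63, -2.64 and -2.97 among mutants. The median difference between groups on this scale was 0.17 for G2/M and 0.09 for S phase members, beside 0.15 for all genes tested. Without control replicate 3 these relative medians were -0.02 and -0.18, without control replicate 2 they were 0.30 and 0.28, and with the letters as a block 0.32 and 0.28. The value of 0.15 for all genes belongs to the unblocked fit of all 6 libraries, and it moved too. In the same order, endothelial content differed by 0.19, -0.38 and -0.36 between groups. The median over all genes tested was -0.0023, -0.0012 and 0.00043 before that content was subtracted. That content enters the relative median of all genes tested as it does those of the members. Before its subtraction the members' own medians moved as well, unlike the median over all genes. In the same order the G2/M median went from 0.02 to 0.17, -0.08 and -0.03. The S phase median went from -0.07 to 0.01, -0.09 and -0.08.

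**Figure D5:**
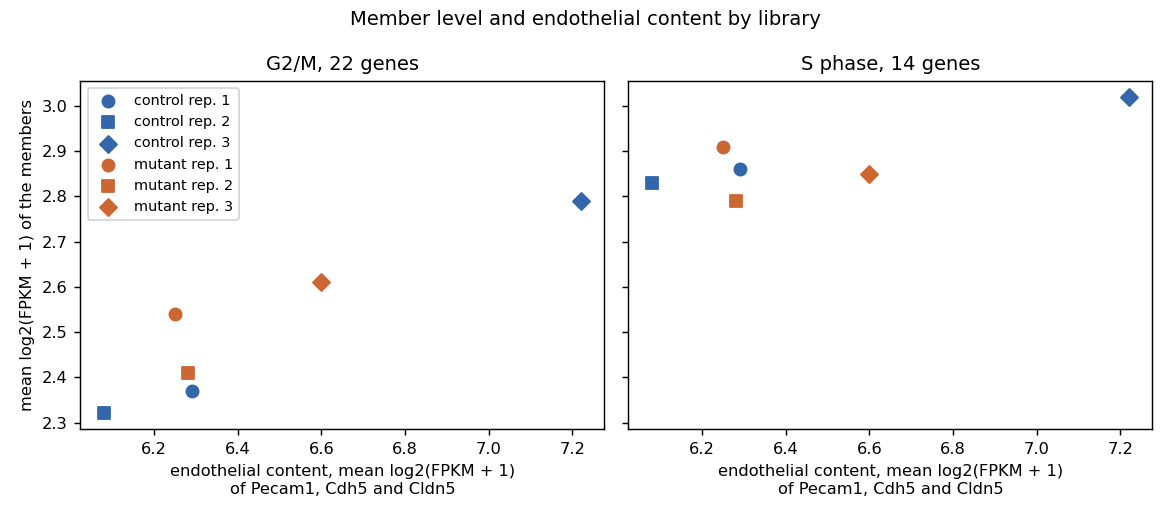
Mean log2(FPKM + 1) of the 22 G2/M members (left) and the 14 S phase members (right) against endothelial content, the mean log2(FPKM + 1) of Pecam1, Cdh5 and Cldn5, with 1 point per library, controls in blue and mutants in orange. Control replicate 3 lies at the upper right of both panels, at an endothelial content of 7.22, and the G2/M points span 2.32 to 2.79 while the S phase points span 2.79 to 3.02.

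The direction of the G2/M median turned with the library left out. Without control replicate 3 the median log2 difference was 0.17 for G2/M members, with 21 of 22 having a higher mean in mutants, and 0.01 for S phase members, with 8 of 14 higher, and 0 members had an unadjusted limma p under 0.05. The endothelial content then differed by 0.19 in the same direction, and the part it plays in the G2/M values was not tested. Of all genes tested without that library, 6664 of 13490 had a higher mean in mutants, at a median of -0.0023. Without control replicate 2 the G2/M median was -0.08, with 16 of 22 lower, beside a median of -0.0012 for all genes tested. Within the libraries lettered A to C, mutant replicate 1 had a higher G2/M value than the mean of its 2 controls for 20 of 22 members, at a median of 0.19, and within D to F the 2 mutants had a higher mean than control replicate 3 for 2 of 22, at a median of -0.32. For S phase members the medians were 0.11 within A to C and -0.21 within D to F. Of the 13619 genes tested, 7416 were higher in mutants within A to C and 6912 within D to F, at medians of 0.02 and 0.0036. Each set holds 1 library of a genotype, too few for a test.

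Among markers of other cells, those of pericytes and smooth muscle were highest in control replicate 3 as endothelial genes were, and those of retinal progenitors and most neural and glial cells were not. The mean level of 12 retinal progenitor genes was 3.80, 3.93 and 3.71 among controls, against 3.82, 3.76 and 3.68 among mutants on the log2(FPKM + 1) scale, and control replicate 3 was the highest library for 1 of the 12. Of these genes 11 had a lower and 1 a higher mean in mutants, at a median log2 difference of -0.06. Pericyte and smooth muscle genes were at 2.83, 2.80 and 3.50 among controls, against 3.15, 2.98 and 3.13 among mutants, with control replicate 3 highest for 9 of 10. Control replicate 3 was highest for 15 of 15 pan-endothelial genes, for 3 of 13 bipolar, amacrine and ganglion cell genes, and for 0 of 10 photoreceptor, 0 of 6 Muller glia, 0 of 6 astrocyte and 0 of 10 microglia genes. It was the lowest library for 9 photoreceptor, 4 Muller glia, 2 astrocyte, 1 microglia, 3 progenitor and 3 bipolar, amacrine and ganglion cell genes, and for 3317 of the 13619 genes tested. Of the 10 photoreceptor genes 8 had a higher and 2 a lower mean in mutants. An unadjusted limma p under 0.05 was reached by 2 of them, against 1.21% of all genes, with 0 called. Microglia genes were at 1.95 in mutant replicate 1 and at 2.42 to 2.88 elsewhere, and of 5 erythroid genes 2 were listed at 0 in all libraries and 1 was highest in control replicate 3. The part of any of these cells in the levels of cell cycle genes was not tested.

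A further 132 genes of the same pathways were examined, with 0 called by limma and 0 with an unadjusted p under 0.05 among the 126 tested. Of the 132, 64 had a higher and 68 a lower mean in mutants. Control replicate 3 was the highest library for 21 of 27 genes of the spindle, chromosome structure and cytokinesis, 9 of 14 of the kinetochore and checkpoint and 8 of 12 of mitotic entry and exit. It was highest for 1 of 15 origin and replisome genes, 5 of 21 polymerase and fork genes and 5 of 9 genes of nucleotide and chromatin supply. The mitotic lists had medians of 0.03, 0.01 and -0.02 and the replication lists of 0.03, 0.02 and 0.05 between genotypes. Without control replicate 3 the medians of the mitotic lists were 0.15, 0.13 and 0.06 and those of the replication lists 0.02, 0.05 and 0.14, in the same order. The groups did not overlap for 8 of the 132 (6.06%), near the 4.35% of all genes tested.

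Over all 6 libraries together, most genes of the 4 lists of upstream regulators had lower means in mutants, with no call. Within the libraries lettered A to C this direction did not hold for every list. Of 13 E2F and RB factors 10 had a lower mean (median -0.05), of 7 DREAM and MuvB factors 6 (median -0.06), of 7 G1 cyclins and kinases 6 (median -0.11) and of 7 CDK inhibitors 6 (median -0.09), where 7151 of the 13619 genes tested had a lower mean. In these lists 5, 2, 5 and 3 genes were highest in control replicate 3, and without it 9, 4, 5 and 6 had a lower mean, with medians of -0.08, -0.07, -0.03 and -0.10. Within A to C, 8, 6, 2 and 4 genes were higher in mutant replicate 1 than in its controls, at medians of 0.05, 0.08, -0.03 and 0.01. Within D to F, 5, 2, 1 and 2 were higher in the mutants than in control replicate 3, at medians of -0.06, -0.08, -0.33 and -0.19. Ccnd1, cyclin D1, which carries growth signals into the cycle, stood at 31.6, 31.5 and 38.2 FPKM among controls, against 29.8, 28.6 and 27.5 FPKM among mutants. All mutants were below all controls for Ccnd1, with a log2 difference of -0.23 and a standard error of 0.102 (limma unadjusted p = 0.0592, adjusted p = 1). Without control replicate 3 it was -0.14. Cdkn1a, the CDK inhibitor p21, measured 11.2 ± 4.20 and 8.52 ± 0.770 FPKM (SD, n = 3 each), a log2 difference of -0.31, and control replicate 3 was 1.84 times the mean of the other libraries. Without that library the difference of Cdkn1a was -0.05, and that of cyclin D2, Ccnd2, was -0.03 in place of -0.19. Cdkn1c was at -0.15 and at -0.05 without mutant replicate 2, E2f2 at -0.20 and at -0.10 without mutant replicate 2, and the E2F partner Tfdp2 at -0.14. Of the MuvB subunits Lin9 was at 0.22, with all mutants above all controls, and Lin52 at -0.16 and at -0.06 without mutant replicate 3.

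In the replication lists, Gins1, a helicase subunit, averaged 2.84 ± 0.251 FPKM among controls, against 2.28 ± 0.235 FPKM among mutants without overlap, a log2 difference of -0.23 from 49 to 101 reads per library. The licensing inhibitor Gmnn was at 0.23 and the fork gene Tipin at 0.14, and without mutant replicate 1 these were 0.03 and 0.07. The clamp loader gene Rfc2 was at 0.11, and at 0.03 without mutant replicate 3. Thymidine kinase, Tk1, was at 0.23 and at 0.09 without control replicate 1, and the chromatin remodeller Hells at 0.17 and at 0.08 without control replicate 2. In the mitotic lists, the kinetochore gene Spc25 had the largest difference, -0.33 with a standard error of 0.145, at 6.28 ± 0.440 and 4.84 ± 0.977 FPKM (SD, n = 3 each, limma unadjusted p = 0.0524, adjusted p = 1). Knstrn was at 0.16 and at 0.04 without control replicate 2, Cdca8 at 0.15 and at 0.07 without mutant replicate 1, and the kinesin Kif22 at 0.13 without overlap of the groups. Of the genes of mitotic entry and exit, Fbxo5, an inhibitor of the anaphase-promoting complex, was at -0.14 and at -0.08 without control replicate 3, and securin, Pttg1, at 0.09 and at 0.02 without control replicate 1. Each of these genes had a limma adjusted p of 1.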

How the data were processed

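RNA of 6 libraries, 3 control and 3 mutant by the genotype in the labels, was sequenced from TruSeq RNA libraries per the labels' protocols. The deposited table holds FPKM values that the authors computed per gene and library. STAR 2.5.0b, Cufflinks 2.2.1, bedtools 2.17.0, DESeq2 and the build mm10 are named, without roles, per the submitters' processing notes. The annotation, any filter and whether strand was used: not given in the sources used here. Exon overlaps came from GENCODE M21 and promoters from RefSeq GRCm38.p6.

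Steps in the FPKM of miRNA genes gave each library's depth factor. Whole reads, within a tolerance of 0.004 reads that widens slightly with the count, were then recovered for 16487 of 16487 rows with a unique symbol and a value above 0 in every library (100%). The 4 rows with a repeated symbol were left out. The values log2(FPKM + 1) of 13619 genes, those reaching 1 FPKM in 3 or more libraries, were fitted with limma 3.58.1 (R 4.3.3, trended prior, equal weights). Tests were two-sided, and p-values were adjusted by Benjamini-Hochberg over these genes, with 0.05 as threshold. The fit was also run on simulated counts, drawn gene by gene without a shift shared by genes, and no result here rests on that run. Members, phases, lists and motifs were chosen with earlier results of these data known. Values in every library are given for Mki67, Top2a, Pcna and the MCM genes, and in each phase for the 2 members of highest mean, the 1 of lowest mean and the 3 of smallest p. From each wider list the 2 genes of smallest p are named. Kif11, Tpx2 and other members given by range or mean are there to account for all 36. Alternatives were other filters, a pseudocount of 0.1, other scalings, blocks, weights, a covariate, voom and leaving out each library. Python 3.11.15, numpy 2.4.6, pandas 2.3.3, scipy 1.17.1 and matplotlib 3.10.9 were used.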

Additional observations from a re-analysis of the deposited data

How the results depend on the processing

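All 18 alternatives were planned, and 2 of them, the pan-endothelial list as content and Ccna2 counted with S phase, concern the medians alone. The other 16 called 0 members, and they called 0 genes except limma with a weight per library, which called 145. Its weights were estimated without full convergence, the lowest being 0.26 (control replicate 3) and the highest 7 (mutant replicate 2). Those weights gave an S phase median relative to endothelial content of -0.20, an endothelial content difference of 0.12, and log2 differences of 0.04 for Mcm3, 0.08 for Cdc6, -0.06 for Pcna, 0.09 for Cdh5 and 0.31 for Cldn5, and Spc25 was called at -0.55. Blocking on the letters A to C and D to F gave -0.10 for Mki67, -0.04 for Top2a and -0.03 for Mcm5, and 7 of 22 G2/M members then had a higher mean in mutants. Quantile normalization gave -0.00057 for Mki67 and 11 of 22 G2/M members higher, where the unscaled values gave 14. With endothelial content as a covariate Pcna was at -0.02, 19 of 22 G2/M members were higher, and values relative to that content could not be fitted. The cause of these shifts was not tested.

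Leaving out 1 library at a time moved the G2/M median between -0.08 and 0.17, the medians relative to endothelial content between -0.02 and 0.30 (G2/M) and between -0.18 and 0.28 (S phase), the endothelial content difference between -0.38 and 0.19, Mki67 between -0.17 and 0.21, Top2a between -0.08 and 0.18, and Ccna2 between -0.27 and 0.02. Mcm2 ranged from -0.14 to 0.03, Mcm3 from -0.33 to 0.06, Mcm5 from -0.03 to 0.15, Mcm6 from -0.24 to 0.01, Cdc6 from -0.11 to 0.01 and Pcna from -0.09 to 0.08. Pecam1 ranged from -0.43 to 0.08, Cdh5 from -0.42 to 0.14 and Cldn5 from -0.28 to 0.36. Of 38 named genes, 12 changed sign under at least 1 alternative.

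With the replicate number as a replicate block, 0 genes were called, the medians stayed at 0.02 for G2/M and -0.07 for S phase members, and 296 genes had an unadjusted p under 0.05. Deviations from the group means correlated at 0.249, -0.151 and 0.39 between same-numbered libraries. Between differently numbered libraries the correlations ran from -0.352 to 0.231. The best partner of control replicate 2 and of mutant replicate 2 bore another number. So few values do not settle whether the numbers pair the libraries. With 3 libraries a group, the confidence intervals of single genes are wide, and a missed threshold does not show that the groups are alike.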
